A study of Homo sapiens with 7 samples.

Results

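A set of 10 genes that oppose Wnt signalling or are often silenced in colon cancer was followed in a map of H3K4me3, a histone methylation found at active promoters. The 10 genes are SFRP1, SFRP2, SFRP4, SFRP5, WIF1, DKK1, DKK3, RUNX3, SOCS1 and TIMP3. The members are the measured regions that overlap 3 kb either side of 11 transcription starts on hg19, RUNX3 having a pair of starts. Of 30840 regions 7 did so, and these belonged to 6 of the 10 genes. The rule for a region uses position only, while the genes themselves were chosen with earlier results of these data known.

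The cells were HCT116, an established human colon cancer line that carries a mutant beta-catenin. The KDM5A gene was knocked out (genotype KDM5A-/-) in every group, the control included, and no parental library with its own KDM5A was analysed here. KDM5A is a demethylase that removes H3K4me3. These cells received an empty vector (EV), wild-type KDM5A or a KDM5A mutant by transfection and were fixed after 24 h. What the mutation is does not stand in the labels. The series has 7 samples, and the 3 H3K4me3 libraries are described here, 1 per transfection. No difference below therefore has a replicate check or a p-value, and each interval covers counting error only.

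Wnt ligands bind Frizzled receptors together with the co-receptors LRP5 and LRP6, which leads to stabilisation of beta-catenin and transcription of its target genes. The secreted antagonists act outside the cell. The SFRP proteins carry a Frizzled-like domain and bind Wnt ligands, WIF1 binds Wnt ligands through another domain, and DKK1 blocks LRP5 and LRP6. In colon cancer the CpG-rich promoters of such genes are often methylated and inactive, and promoters of that kind commonly lack H3K4me3. RUNX3 is a transcription factor of the TGF-beta response, SOCS1 an inhibitor of cytokine signalling through JAK kinases, and TIMP3 an inhibitor of metalloproteinases. DNA methylation and RNA were not measured in these libraries.

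The promoter sequences of 6 of the genes are shown because these genes stand for the 3 states described below: a strong region (DKK1, SOCS1), a weak region (TIMP3, SFRP4) and no region (WIF1, SFRP2). Each is the 250 bases before the start in RefSeq on GRCh38.p14, written 5′ to 3′ on the strand of the gene, with every CpG in capitals.
DKK1 (chr10:52314031-52314280, plus strand): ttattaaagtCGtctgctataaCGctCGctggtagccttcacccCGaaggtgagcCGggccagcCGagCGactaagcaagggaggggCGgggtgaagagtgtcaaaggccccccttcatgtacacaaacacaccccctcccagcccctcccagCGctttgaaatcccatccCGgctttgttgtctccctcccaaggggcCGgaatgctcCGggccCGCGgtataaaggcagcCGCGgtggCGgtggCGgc
SOCS1 (chr16:11256205-11256454, minus strand): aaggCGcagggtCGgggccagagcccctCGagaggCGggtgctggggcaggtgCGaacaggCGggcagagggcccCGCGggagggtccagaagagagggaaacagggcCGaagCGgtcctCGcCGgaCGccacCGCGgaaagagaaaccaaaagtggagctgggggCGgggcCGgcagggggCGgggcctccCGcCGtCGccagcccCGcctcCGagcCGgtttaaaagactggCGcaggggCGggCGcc
TIMP3 (chr22:32801455-32801704, plus strand): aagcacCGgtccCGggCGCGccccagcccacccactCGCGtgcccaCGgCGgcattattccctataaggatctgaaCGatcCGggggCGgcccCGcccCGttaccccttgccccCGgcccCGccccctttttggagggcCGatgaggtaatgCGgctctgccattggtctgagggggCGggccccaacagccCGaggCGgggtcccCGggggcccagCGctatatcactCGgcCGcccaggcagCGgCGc
SFRP4 (chr7:37916818-37917067, minus strand): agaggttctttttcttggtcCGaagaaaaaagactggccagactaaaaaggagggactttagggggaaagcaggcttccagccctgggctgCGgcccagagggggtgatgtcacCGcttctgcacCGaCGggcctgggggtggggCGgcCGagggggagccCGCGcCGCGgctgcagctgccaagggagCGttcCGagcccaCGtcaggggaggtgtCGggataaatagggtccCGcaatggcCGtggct
WIF1 (chr12:65121306-65121555, minus strand): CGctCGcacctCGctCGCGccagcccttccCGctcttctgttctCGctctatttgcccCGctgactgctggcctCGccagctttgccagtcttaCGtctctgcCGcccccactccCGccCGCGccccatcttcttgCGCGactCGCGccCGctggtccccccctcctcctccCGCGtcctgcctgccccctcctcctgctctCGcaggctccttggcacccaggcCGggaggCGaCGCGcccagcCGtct
SFRP2 (chr4:153789084-153789333, minus strand): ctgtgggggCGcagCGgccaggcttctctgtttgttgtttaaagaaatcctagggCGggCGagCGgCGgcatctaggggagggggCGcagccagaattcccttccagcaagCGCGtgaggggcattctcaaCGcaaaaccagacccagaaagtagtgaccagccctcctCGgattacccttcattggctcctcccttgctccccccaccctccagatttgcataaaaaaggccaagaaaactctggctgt

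The promoters of 8 of the 10 genes were matched in the RefSeq table used here, and those of SFRP1 and DKK3 were not analysed here. The number of CpGs in these 250 bases did not order the genes by their mark. WIF1, with no region, and SOCS1, with a strong one, both had 27 CpGs, more than 82.3% of all 35116 promoters. TIMP3, with a weak region, had 26, and DKK1, with a strong region, had 18. SFRP2 had 11, which is also the median of all promoters, and SFRP4 and SFRP5 had 17 and 21. For RUNX3 the table's start lies 128 bp from the upstream end of the gene, so its 13 CpGs describe the upstream start, which had no region. The motif CCGCCC, which the ARID domain of KDM5A is known to bind, was searched on both strands and itself contains a CpG. It occurred in 8 of the 8 promoters, against 42.6% of all promoters, with 5 matches in TIMP3, 3 in SOCS1, 2 each in SFRP5 and WIF1 and 1 in each of the others. The 42.6% is not matched for CpG number, and every member but SFRP2 lay above the median of 11. Nor was the motif particular to the members. Every matched promoter of the Wnt receptors described below held it, and AXIN1 and MGMT had 8 matches each. RNF43, SOST and CDKN2A had 0. The motif CTTTGAT, which TCF and LEF factors of the Wnt pathway can bind, occurred in 0 of the 8 and in 2.26% of all promoters. A match is a description of the letters only.

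**Figure D1:**
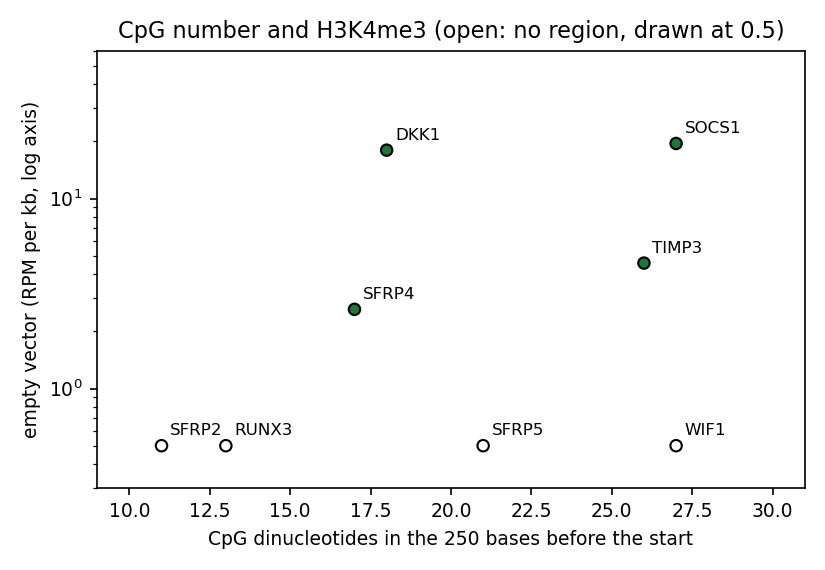
H3K4me3 at the start in the empty vector library (RPM per kb of region, log axis) against the number of CpGs in the 250 bases before the RefSeq start. Open points have no region at that start and are drawn at 0.5 for display; WIF1 and SOCS1 share 27 CpGs, and SOCS1 had 19.5 RPM per kb while WIF1 had no region.

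The libraries held 10713021 reads (EV), 10852411 (wild-type KDM5A) and 9906508 (mutant KDM5A), and the values are RPM, the reads of a region per 1000000 reads of its library. A value of 0 reads would allow up to 0.280, 0.276 and 0.303 RPM. The scaling matters here: at regions of 20 RPM or more the summed signal changed by −9.99% with wild-type and by −15.7% with mutant KDM5A relative to the empty vector. Setting the median ratio of the stronger regions to 1 moved the median log2 ratio of all regions by 0.13 and 0.21. Of the regions past 1.5-fold, 51.2% were lower with wild-type KDM5A as deposited and 37.0% after that scaling. For mutant KDM5A these shares were 55.2% and 31.7%. Regions of chromosome 12 were picked for under 1 RPM with the empty vector and over 5 RPM in both KDM5A libraries. There were 19, all from 394565 to 493388, in the span of the KDM5A gene. They summed to 4.01 RPM in the empty vector library, 392 with wild-type and 482 with mutant KDM5A. The direction of these sums was set by the picking, so they are no test of the labels. Only the position within chromosome 12 was not part of the filter. As a check of the cell type, 5 of 6 epithelial and colon markers (EPCAM, CDH1, KRT8, KRT18, CDX2) had a region within 3 kb of their start, at 51.7 to 85.04 RPM with the empty vector. VIL1 had none. Among the markers of other cell types described here, PTPRC, ALB and GFAP had none. DES and MYOD1 had 0.933 and 0.280 RPM, and COL1A1, a collagen gene of mesenchymal cells, had 47.05 RPM.

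Of the 10 genes 4 had no listed region within 3 kb of their start: SFRP2, SFRP5, WIF1 and DKK3. All 4 encode secreted Wnt antagonists or, for DKK3, a divergent member of the Dickkopf family. The nearest region to the SFRP2 start was 273.8 kb away and weak, at 1.03, 0.921 and 0.808 RPM with the empty vector, wild-type and mutant KDM5A. No H3K4me3 region was thus listed anywhere near SFRP2. The nearest region to SFRP5 lay 33.5 kb away and that to WIF1 47.8 kb away. Both of these were strong, with 48.3 and 63.2 RPM in the empty vector library, too far away to be called promoter signal of the genes. DKK3 had a region of 2.80, 2.67 and 2.93 RPM at a distance of 9.32 kb, on the side of lower coordinates, and its 3 values lay close together. The upstream start of RUNX3 also had no region, the nearest one lying 31.8 kb away beside the downstream start. Signal outside the listed regions was not analysed here, so the absence of a region gives no level.

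**Figure D2:**
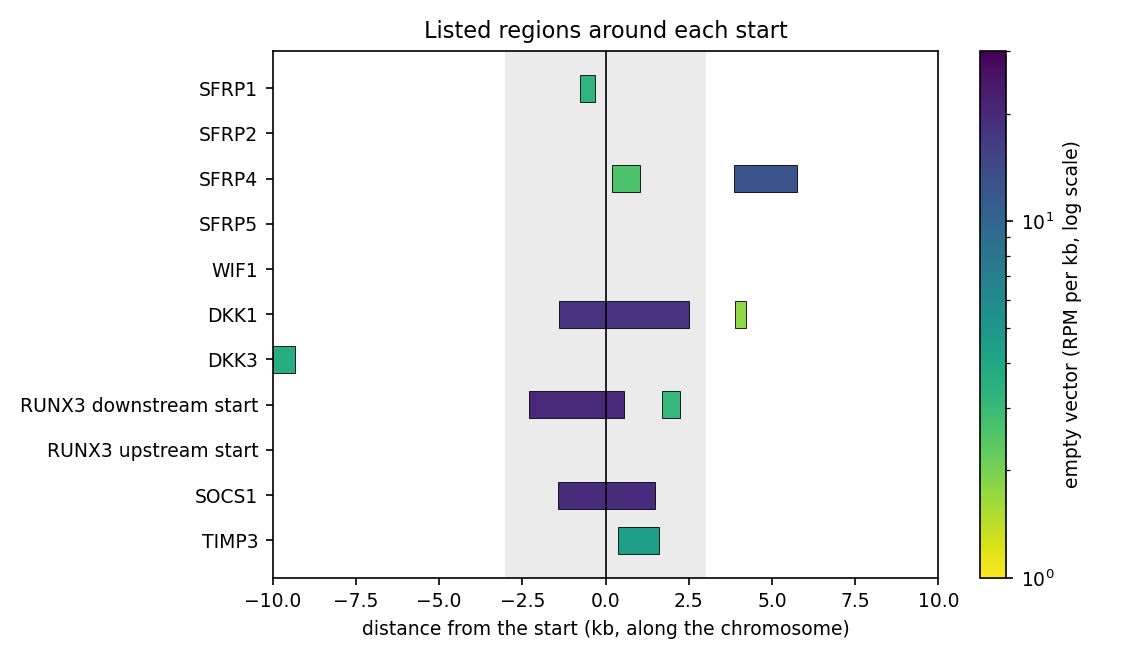
Listed regions within 10 kb of each of the 11 starts (line at 0), drawn to scale and coloured by RPM per kb in the empty vector library, with values under 1 in the colour of 1. The grey band is 3 kb either side; SFRP2, SFRP5, WIF1, DKK3 and the upstream RUNX3 start have no region inside it.

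Another 3 genes carried a full promoter region, each 2.87 to 3.90 kb wide and across the start. In the empty vector library DKK1, the antagonist of LRP5 and LRP6, had 70.1 RPM, beside 61.7 with wild-type and 56.3 with mutant KDM5A, over chromosome 10, 54072612 to 54076509. RUNX3 had 59.2, 53.7 and 47.6 RPM in the same order at its downstream start, chromosome 1, 25254696 to 25257561. SOCS1 had 56.6, 49.1 and 44.01 RPM at chromosome 16, 11348577 to 11351477. All 3 genes had the highest value in the empty vector library and the lowest in the mutant KDM5A library. Per kb of region their empty vector levels were alike: 17.98 RPM per kb for DKK1, 20.6 for RUNX3 and 19.5 for SOCS1. Averaged over the libraries these levels were above 78.04%, 86.2% and 81.6% of all regions. The SOCS1 start lies in RefSeq within a lncRNA gene on GRCh38.p14, and signal there can belong to either gene. Another lncRNA gene, PRKG1-AS1, reaches within 3 kb of the DKK1 start without spanning it.

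The remaining 3 genes had a weak, short region. TIMP3 had 5.69 RPM (61 reads) in the empty vector library, 2.76 (30 reads) in that of wild-type and 2.02 (20 reads) in that of mutant KDM5A, at chromosome 22, 33197372 to 33198616. The TIMP3 start lies within the body of SYN3, a synapsin gene. SFRP4 had 2.24 RPM (24 reads), 0.369 (4 reads) and 0.707 (7 reads) at chromosome 7, 37956190 to 37957047. SFRP1 had 1.49 RPM (16 reads), 1.01 (11 reads) and 0.404 (4 reads) at chromosome 8, 41166221 to 41166676. In all 3 genes the empty vector library was highest, and the order of the KDM5A libraries differed: the mutant was lowest at TIMP3 and SFRP1 and the wild type at SFRP4. Per kb of region the empty vector levels were 4.57 RPM for TIMP3, 2.61 for SFRP4 and 3.28 for SFRP1. The mean levels per kb were above 33.5%, 2.76% and 18.1% of all regions. RUNX3 had a second, weak region 1.69 kb from the downstream start, at 25258690 to 25259230, with 1.68, 1.66 and 1.82 RPM (18 reads in each library). It was thus level across the 3 libraries.

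Ordered by RPM per kb in the empty vector library, RUNX3, SOCS1 and DKK1 came first, followed by TIMP3, SFRP1, the second RUNX3 region and SFRP4. With 1 library per group, no spread is known by which neighbours in this order could be told apart.

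**Figure D3:**
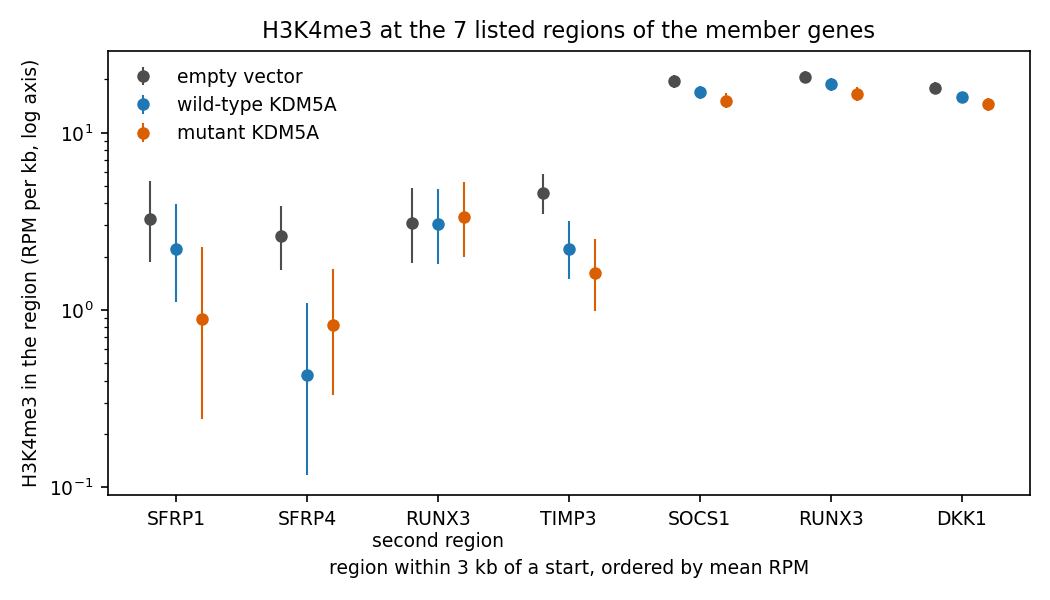
H3K4me3 at the 7 regions in each library (RPM per kb of region, log axis). Points are single libraries and bars are exact Poisson 95% intervals of the reads, which cover counting error only; DKK1, RUNX3 and SOCS1 stand between 14.5 and 20.6 RPM per kb, and the other 4 regions at 4.57 or less.

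The first comparison asks how H3K4me3 at these genes differed once wild-type KDM5A was put back. TIMP3 was 2.06-fold lower than with the empty vector (exact conditional 95% interval 1.31 to 3.30) and SFRP4 6.08-fold lower (2.09 to 24.1). SFRP1 was 1.47-fold lower with an interval that includes no difference (0.642 to 3.51). A region was counted as lower when RPM plus a pseudocount of 0.7 differed by 1.5-fold, a scale that understates changes of weak regions. By this rule 2 of the 7 member regions were lower, TIMP3 (log2 ratio −0.88) and SFRP4 (−1.46), and 0 were higher. Among all regions 6.53% were lower and 6.23% higher, and among the 15714 regions under 5 RPM on average 11.9% were lower and 11.9% higher. Of those weak regions, 4.23% had a lower ratio than TIMP3 and 0.165% a lower ratio than SFRP4. With a pseudocount of 3.5 RPM no member region passed 1.5-fold.

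The strong members moved little against the empty vector. DKK1 differed by −11.9% with wild-type KDM5A (ratio 0.881, 0.792 to 0.979) and SOCS1 by −13.2% (0.868, 0.771 to 0.977). RUNX3 differed by −9.23% (0.908, 0.810 to 1.02), with an interval that includes no difference. These sizes lie near the −9.99% of all strong regions together, of which 0.0459% passed 1.5-fold downwards and 0.0459% upwards. On the log2 scale DKK1 stood at −0.18, RUNX3 at −0.14 and SOCS1 at −0.20, and the median of all strong regions at −0.15. Scaled to a median ratio of 1, the 3 values became −0.042, 0.0015 and −0.062, so that RUNX3 changed sign, while TIMP3 stayed at −0.77 and SFRP4 at −1.41.

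The mutant was compared next, against the same empty vector library, so that both comparisons share that library. Here 3 of the 7 member regions were lower by 1.5-fold and 0 higher, where 8.15% of all regions were lower and 6.61% higher. Among regions under 5 RPM 13.9% were lower and 12.7% higher. TIMP3 was 2.82-fold lower (1.68 to 4.94; log2 ratio −1.23), SFRP1 3.70-fold lower (1.19 to 15.2; −0.99) and SFRP4 3.17-fold lower (1.33 to 8.71; −1.06). The 3 genes that were lower are those with a weak region at their start, and the second RUNX3 region, which is as weak, had a log2 ratio of 0.081. Of the regions under 5 RPM, 1.03% had a lower ratio than TIMP3, 3.28% than SFRP1 and 2.48% than SFRP4. With a pseudocount of 3.5 RPM only TIMP3 remained past 1.5-fold.

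Strong members again differed less. DKK1 differed by −19.65% between mutant KDM5A and the empty vector (ratio 0.8035, 0.719 to 0.898). RUNX3 differed by −19.5% (0.805, 0.713 to 0.908) and SOCS1 by −22.2% (0.778, 0.686 to 0.881). Each of the 3 intervals excludes 1 and includes 0.843, the ratio of all strong regions summed. Of all strong regions 0.432% passed 1.5-fold downwards and 0.0459% upwards, and none of these 3 did. Their log2 ratios were −0.31, −0.31 and −0.36, and the median of all strong regions was −0.24. After scaling to a median ratio of 1 they were −0.081, −0.078 and −0.13, whereas TIMP3 stood at −1.06, SFRP1 at −0.90 and SFRP4 at −0.94.

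**Figure D4:**
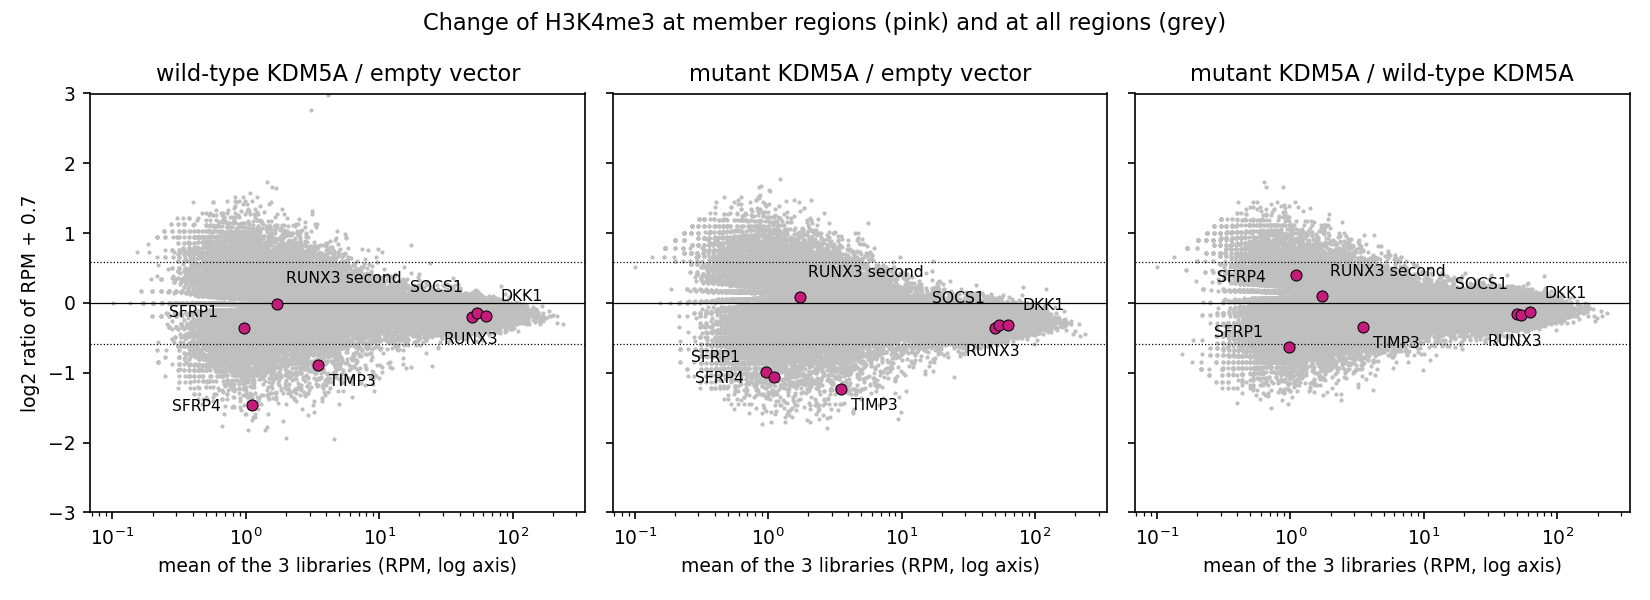
Log2 ratio of RPM + 0.7 against the mean RPM of the 3 libraries (log axis) for all regions (grey) and the 7 member regions (pink), in the 3 comparisons. Dotted lines mark 1.5-fold and points beyond the vertical axis are not drawn; the strong members lie inside the grey band between −0.14 and −0.36 against the empty vector, and TIMP3 and SFRP4 lie below the lower dotted line in both of those panels.

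The third comparison asks whether mutant and wild-type KDM5A left different levels at these genes. Of the 7 regions 1, SFRP1, was lower by 1.5-fold with the mutant (log2 ratio −0.63) and 0 were higher. Over all regions 5.45% were lower and 5.19% higher, among those under 5 RPM 10.2% and 10.1%, and among those of 20 RPM or more 0% in either direction. The SFRP1 value rests on 4 against 11 reads, and the interval of its ratio runs from 0.0925 to 1.34. The TIMP3 ratio of the mutant to the wild type was 0.730 (0.393 to 1.33) and for SFRP4 1.92 (0.487 to 8.93). The ratios of DKK1, RUNX3 and SOCS1 were 0.912 (0.814 to 1.02), 0.887 (0.784 to 1.003) and 0.896 (0.788 to 1.02). No member region thus had an interval that excludes 1. Summed over the 3 strong members the ratio was 0.899 (0.839 to 0.964), a change of −10.1%, where that of all strong regions together was −6.33%. These intervals leave room for differences of either size, and they do not show that the forms of KDM5A act alike.

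Among the 4 weak member regions, 3 had their highest value in the empty vector library, and the second RUNX3 region did not. All regions under 5 RPM together changed by −1.47% with wild-type and −3.89% with mutant KDM5A against the empty vector. The 3 strong members summed to 186, 165 and 148 RPM, ratios to the empty vector of 0.886 (0.830 to 0.944) and 0.796 (0.744 to 0.852). How regions came to be listed is not given in the sources used here. A weak region listed because of 1 library would tend to be highest in that library, and the part of this in the values above was not tested.

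The surroundings of the weak members differed. A stronger region lay 3.85 kb from the SFRP4 start, at 37959850 to 37961767, with 23.9, 21.8 and 20.7 RPM. Neighbouring genes were looked up within 3 kb of a start only, so this region is not assigned to SFRP4 or to another gene. The log2 ratios of the stronger region to the empty vector, −0.13 and −0.20, lay near those of strong regions in general. The weak region at the SFRP4 start and this one thus did not share 1 ratio. DKK1 had a further weak region 3.90 kb from its start with 0.560, 1.01 and 0.606 RPM, highest with wild-type KDM5A on 11 reads or fewer. SFRP1, SOCS1 and TIMP3 had no other region within 10 kb.

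Other genes of the pathway were placed by approximate hg19 starts taken from general knowledge to the nearest kb, and the strongest region within 3 kb stands for each gene. Of 17 other Wnt antagonists and feedback inhibitors 13 had a region, and DKK4, FRZB, SOST and CER1 had none. FRZB, a relative of the SFRP genes, was 148.7 kb from any region. AXIN2, a scaffold of the beta-catenin destruction complex and a Wnt target, had the highest level per kb, with 92.2, 82.7 and 70.4 RPM over its region. SHISA2, which retains Frizzled receptors inside the cell, had the lowest, with 1.03, 0.276 and 0.303 RPM. In this list 3 genes were lower by 1.5-fold with wild-type and 3 with mutant KDM5A, of 13 with a region, and 0 were higher in either. Of all regions 6.53% and 8.15% were lower, and of those under 5 RPM 11.9% and 13.9%. All of the called genes were among its 4 genes under 5 RPM: DKK2, APCDD1, SHISA2 and SHISA3, of which DKK2, APCDD1 and SHISA3 are named after their values were seen. The list's median log2 ratios were −0.24 and −0.42, beside −0.11 and −0.18 for all regions, and −0.098 and −0.19 after scaling to a median ratio of 1. Among its better covered genes AXIN1 had the lowest ratios, with 22.7, 17.1 and 15.7 RPM. RNF43, a ligase that removes Frizzled receptors, stood highest against the empty vector with wild-type KDM5A, with 19.2, 21.3 and 15.5 RPM.

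The receptors that these antagonists act on were nearly all marked. All 12 Wnt receptor genes (LRP5, LRP6 and FZD1 to FZD10) had a region, 9 of them at 20 RPM or more on average. FZD6 had the highest level per kb, with 49.8, 51.6 and 43.7 RPM over its region, and FZD10 the lowest, with 1.68, 0.553 and 0.908 RPM. With wild-type KDM5A 1 gene of 12, FZD10, was lower by 1.5-fold, and with mutant KDM5A 0 were. Of all regions 6.53% and 8.15% were lower, and of those under 5 RPM, to which FZD10 belongs, 11.9% and 13.9%. The median log2 ratios were −0.22 and −0.34, and −0.079 and −0.11 after that scaling. FZD9 had the lowest ratio to the empty vector with the mutant among the better covered receptors, at 9.61, 9.21 and 6.26 RPM.

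Of 34 other genes known for promoter methylation in colon cancer 28 had a region, and GATA5, BMP3, NEUROG1, CRABP1, CDH13 and DCC had none. The 13 genes of this list under 5 RPM were mostly lower: 10 with wild-type and 12 with mutant KDM5A passed 1.5-fold, and 0 were higher in either comparison. That stands beside 11.9% and 13.9% of all regions under 5 RPM. This background is unlike, here and for the other lists: it covers regions at any position, not the strongest near a start. Weak genes of the other Wnt lists were often lower too. These were 3 of 4 Wnt antagonists with either form, and of 1 receptor 1 with wild-type and 0 with mutant KDM5A. The 2 weak markers of other cell types went otherwise, with 0 lower in either comparison. DES was higher by 1.5-fold with wild-type KDM5A (0.933 against 2.03 RPM) and MYOD1 with mutant KDM5A (0.280 against 0.908 RPM), both on few reads. Whether methylated genes differ from other weak promoters was not tested. Of the 8 genes at 20 RPM or more, 0 passed in either direction. PCDH10, a protocadherin gene, had the lowest level per kb, with 8.77, 1.75 and 3.13 RPM in the empty vector, wild-type and mutant libraries. EYA4, a transcriptional cofactor, had the lowest ratios among genes of 5 RPM or more, with 16.1, 9.58 and 6.36 RPM. GATA4, a transcription factor named after its values were seen, had 6.07, 3.13 and 1.82 RPM. HLTF, a chromatin remodeller with the highest level per kb, had 43.03, 35.9 and 38.9 RPM. DAPK1, a kinase of cell death, stood highest against the empty vector with wild-type KDM5A, with 35.4, 38.2 and 28.4 RPM. The list's median log2 ratios were −0.43 and −0.67, and −0.30 and −0.51 after the scaling. Over the whole list, 12 of the 28 genes were lower with wild-type and 15 with mutant KDM5A, beside 6.53% and 8.15% of all regions. The 7 genes of 5 to 20 RPM held 2 and 3 of these, and no share of all regions at that level is given here. With a pseudocount of 3.5 RPM, 4 and 7 genes of the whole list passed. After scaling to a median ratio of 1, 8 and 13 did.

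Of 8 paralogs and partners of RUNX3, SOCS1 and TIMP3, 7 had a region and TIMP4 had none. The other inhibitors of metalloproteinases thus differed from TIMP3, since TIMP2 had 66.9, 63.03 and 56.4 RPM and TIMP1 19.8, 15.3 and 17.1 RPM. SOCS3, a cytokine signalling inhibitor like SOCS1, had 78.6, 70.95 and 59.96 RPM. RUNX1 had 122, 100.2 and 84.9 RPM, the lowest ratio of this list to the empty vector with the mutant (log2 −0.53). At another RUNX1 start, not counted in this list, the region had 5.60, 5.44 and 5.85 RPM (log2 0.057 with the mutant). No gene of the list passed 1.5-fold in any of the 3 comparisons, and 7 of 7 lay below the empty vector with either form of KDM5A as deposited, 5 of 7 after the scaling.

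**Figure D5:**
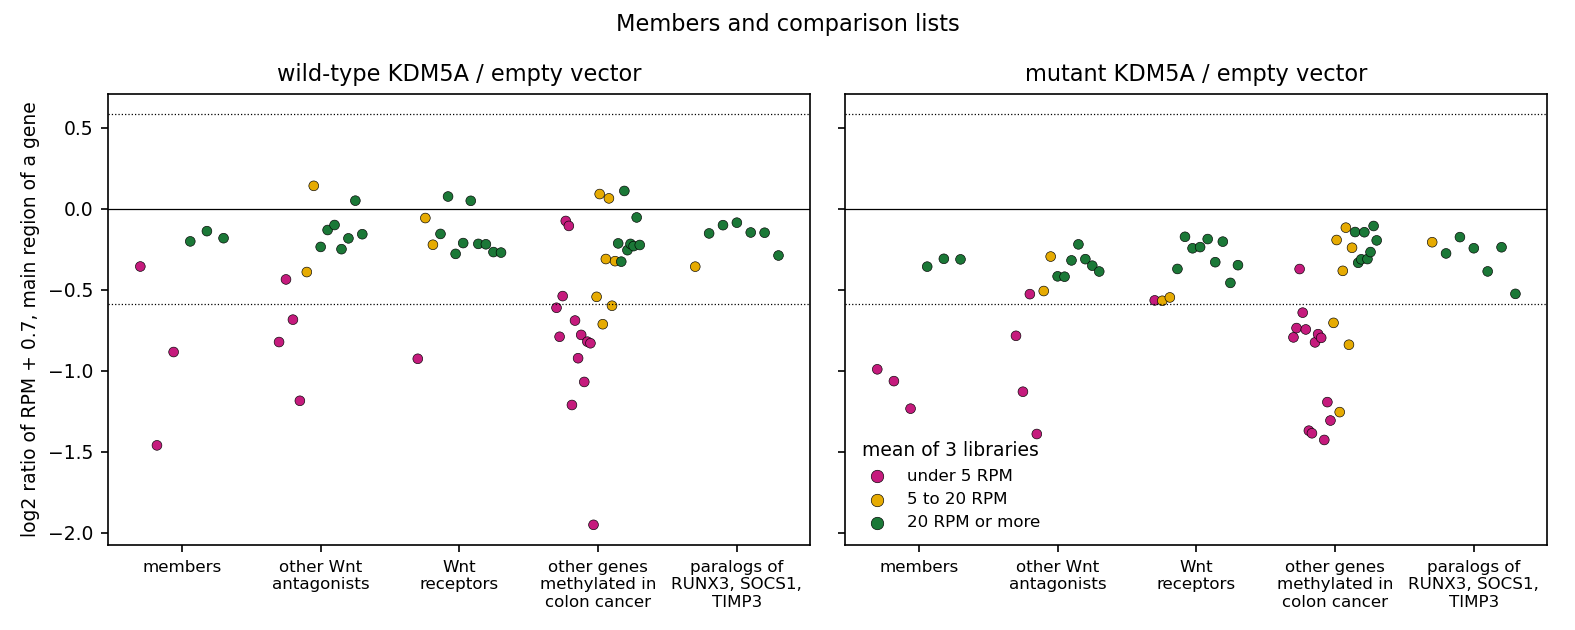
Log2 ratio of RPM + 0.7 to the empty vector for the strongest region of each gene, by list and ordered by level within a list; colour gives the mean RPM and dotted lines 1.5-fold. In the 5 lists drawn, genes of 20 RPM or more lie between the dotted lines and the genes past 1.5-fold are lower, most of them under 5 RPM; the cell type markers are not drawn.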

How the data were processed

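H3K4me3 ChIP-seq libraries of the 3 transfections were used. Those of input chromatin and IgG were not analysed here. The deposited table gives RPM per region, as the authors computed it. The submitters' processing notes name hg19 as the build and list, without roles, deepTools 3.5.6, HOMER, MACS2, MACS and Bowtie2 2.5.4. Not given in the sources used here are the calling, merging and filtering of regions. The header of the empty vector column reads H3K4me4, taken as a slip for H3K4me3. Read numbers were obtained by dividing by the RPM of 1 read in each library, and 100% of values came out whole within 0.02 reads. Starts were counted from 1.

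Levels are RPM, or RPM per kb of region. Ratios use RPM plus 0.7, counts the 1.5-fold threshold, and intervals of plain ratios are exact (Clopper-Pearson, 95%). PCR copies are not independent molecules. No count model was fitted, since each group has 1 library. The steps were tested on simulated data with counting error only. Limits on recovery and false calls were set there for regions of 5 RPM or more, and every member called is weaker. The members and lists were chosen with earlier results of these data known. Classes by level (5 and 20 RPM) also come from that earlier work. Starts of the members came with the definition of the genes and those of the lists from general knowledge, all to the nearest kb, so distances under 1 kb are not resolved. RefSeq sequences are of GRCh38.p14 and no coordinate was converted. From the lists, the genes named were those of highest or lowest level per kb, those of highest or lowest ratio among genes of 5 RPM or more, and those with no region. Others are said to be chosen after their values were seen, and the values of some genes that this rule or the marker lists hold are not reported here. The alternatives were pseudocounts of 0.07 and 3.5 RPM, scaling to a median ratio of 1 or to equal sums, windows of 1 and 10 kb, regions of 5 RPM or more, and a 2-fold threshold. The tools were scipy 1.17.1, pandas 2.3.3 and numpy 2.4.6 under Python 3.11.15, with matplotlib for figures.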

Additional observations from a re-analysis of the deposited data

How the results depend on the processing

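No paired analysis was possible because each transfection has 1 library. Within 1 kb of a start 6 genes had a region and within 10 kb 7, DKK3 being added. The counts of member regions lower by 1.5-fold (2 with wild-type and 3 with mutant KDM5A against the empty vector, 1 with mutant against wild-type KDM5A) became 0, 1 and 0 with a pseudocount of 3.5 RPM. They became 0, 0 and 0 among regions of 5 RPM or more, since every member called is weaker. At 2-fold they were 1, 2 and 0. With a pseudocount of 0.07 RPM, 1 member region was higher with mutant than with wild-type KDM5A. Neither scaling nor window moved these counts by over 1.5 times. Of the values of single member regions under other pseudocounts and scalings, 76 of 84 stayed inside the interval of their ratio and 8 moved outside it, with 0 reversed among those called.

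For the other Wnt antagonists, a pseudocount of 3.5 RPM gave 0 genes lower with wild-type, 1 with mutant and 0 for mutant against wild-type KDM5A, in place of 3, 3 and 1. At 2-fold the first and the last were 1 and 0. For the receptors, 0 genes were lower with wild-type KDM5A at 3.5 RPM and at 2-fold, and 2 with the mutant at 0.07 RPM. For the other methylated genes, 4 and 7 were lower at 3.5 RPM and 3 and 6 at 2-fold, in place of 12 and 15. Under either scaling these counts were 8 with wild-type and 13 with mutant KDM5A. For mutant against wild-type KDM5A, 3 genes became 5 at 0.07 RPM, 0 at 3.5 RPM and at 2-fold, and 1 under either scaling. Apart from the filters and thresholds, the cause was not tested. Depth limits the weak members most, with 4 to 61 reads per library.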
